A study of Mus musculus with 4 samples.

Results

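The RNAs of 37 splicing factor genes were followed in a table of RNA-RNA contacts from mouse spermatogonial stem cells. They comprised 10 SR and TRA2 genes, 14 hnRNP and PTB genes, 7 other RS-domain or LUC7-like genes and 6 further splicing factors (Ddx5, Ddx17, Sf3b1, Sfpq, Nono and Matr3). Members were named genes, found by splitting each pair name at the separator of its 2 RNA names and keeping every pair with a member on either side. All 37 were present among 13318 RNA names, in 441 of 56636 pairs.

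The assay was RIC-seq, in which RNA is fixed to protein in intact cells with formaldehyde, cut, joined end to end where fragments lie close together, and sequenced as chimeric fragments. The 2 differentiation libraries were spermatogonial stem cells labelled Differentiation in the genotype field, and the 2 control libraries were the same cell type labelled WT. All 4 were fixed in 1% formaldehyde for 10 min. How and for how long differentiation was induced is not given in the sources used here, and the labels named no allele, strain, age or number of animals. Separate cultures or animals were not stated for the 2 libraries of a group, and the spread that every p-value rests on may thus be a technical one.

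SR proteins bind exonic enhancers through RNA recognition motifs and recruit the spliceosome through domains rich in arginine and serine, while hnRNP proteins coat nascent transcripts and often oppose exon inclusion. Many of these genes control their own mRNA through poison exons or retained introns, and transcripts that retain introns can stay in the nucleus. In the testis, PTBP2 and several SR and hnRNP proteins act in the splicing programmes of germ cells. The measurements here concern the mRNAs of these genes and not the binding of their proteins.

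Total counts were 793129 and 1155923 in the differentiation libraries and 1209031 and 1400011 in the controls, and members held 0.951% and 1.15% of them in differentiation against 0.903% and 0.923% in control. The Wilson 95% intervals of these shares, which cover counting error only, were 0.929% to 0.972% and 1.13% to 1.17% in differentiation and 0.886% to 0.920% and 0.907% to 0.939% in control. Each listed pair was counted at least 1 time in every library, so these are totals of shared pairs and not sequencing depth. Germ cell and somatic markers differed between the groups: contact totals of 7 of 11 tested meiotic marker RNAs rose and 0 fell, 4 of 7 undifferentiated spermatogonia markers fell and 0 rose, and 6 of 9 Sertoli cell markers and 5 of 12 fibroblast markers fell, with 1 fibroblast marker rising (edgeR quasi-likelihood test, adjusted p under 0.05). Over the table, 598 of 10993 RNAs rose and 742 fell. Of 15 markers of undifferentiated spermatogonia, 9 were in the table, Gfra1, Ret and Zbtb16 among them, and Bcl6b, Id4, Lhx1, Eomes, Nanos2 and Pax7 had no pair analysed here. Neither had the meiotic markers Spo11 and Meiob or the fibroblast markers Postn, S100a4, Dcn and Lum. In bulk libraries, fewer cells of a type and less RNA per cell cannot be told apart.

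A member's counts were of 4 main kinds: contacts within its own RNA, contacts with annotated pseudogenes, contacts with a set of RNAs listed as hubs, and contacts with other RNAs. No pair joined 2 different members. The main hubs, each with pairs described here, were the noncoding RNAs Gm42418 and Gm26917, of which the first is a synonym of Rn18s-rs5 in RefSeq (an 18S ribosomal RNA related sequence, classed as a pseudogene; chromosome 17, 39846354 to 39848202, GRCm38.p6), the nuclear RNAs Malat1 and Neat1, and the sodium-proton exchanger gene Slc9a9. The 11 listed noncoding hubs were the first 4 of these and Gm10800, Meg3, Rn7sk, Rn7s1, Rn7s2, Rmrp and Rpph1. Gm42418 and Gm26917 each met 36 of 37 members and Slc9a9 met all 37, against 96.0%, 93.8% and 94.5% of the other 3912 protein-coding RNAs with at least 100 between-RNA counts. Malat1, a component of nuclear speckles, met 18 members (48.6%, against 41.0% of those others), and Neat1, the scaffold of paraspeckles, met 5 (13.5%, against 24.3%).

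**Figure D1:**
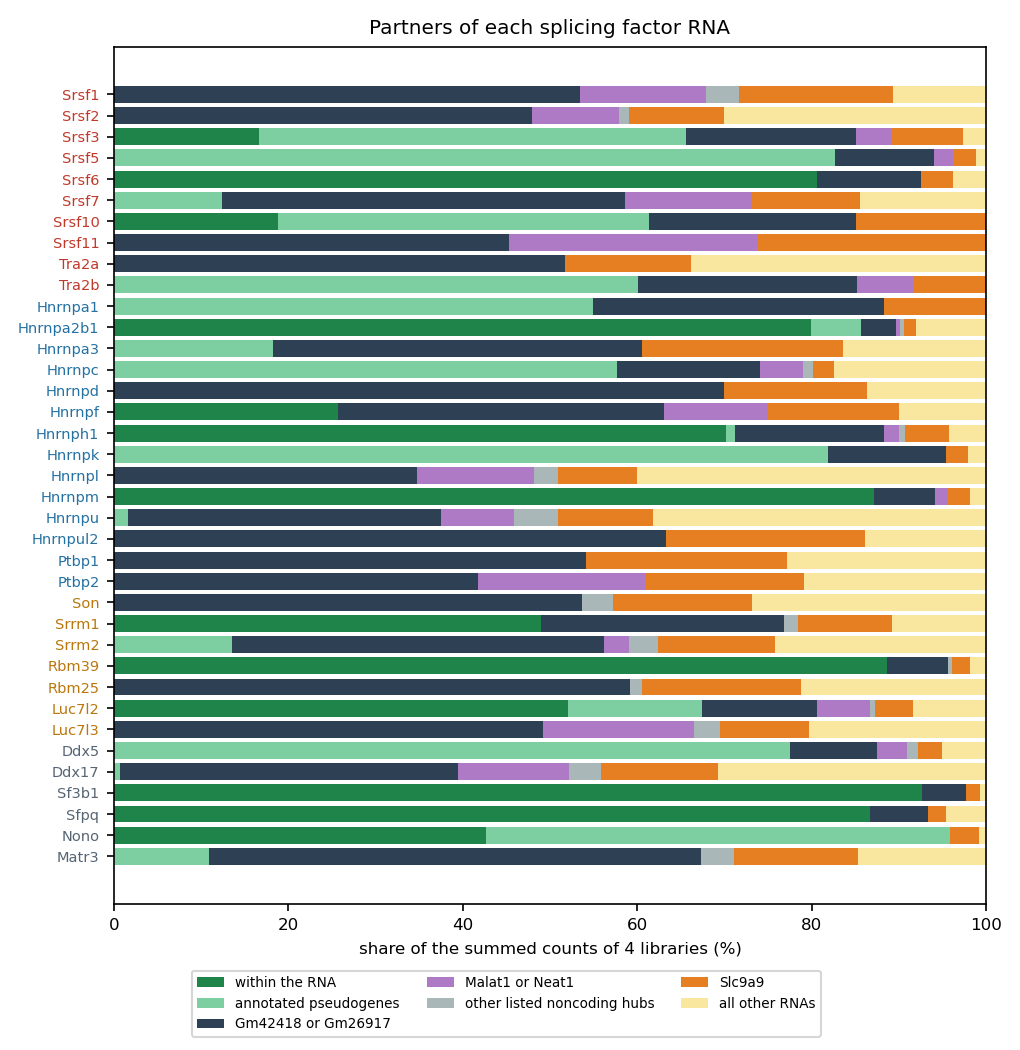
Share of each member's counts, summed over 4 libraries (x axis, percent), by kind of partner; names are coloured by class (red SR and TRA2, blue hnRNP and PTB, brown other RS-domain and LUC7-like, grey other). Sf3b1, Rbm39, Hnrnpm, Sfpq, Srsf6 and Hnrnpa2b1 are mostly within-RNA, Srsf5, Hnrnpk and Ddx5 are mostly with pseudogenes, and Hnrnpd and Hnrnpul2 are mostly with Gm42418 or Gm26917.

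Contacts within the own RNA made up 92.6% of the counts of Sf3b1, a core subunit of the U2 snRNP, 88.7% of Rbm39, 87.2% of Hnrnpm, 86.7% of Sfpq, 80.6% of Srsf6 and 80.0% of Hnrnpa2b1. In contrast, 24 members had no within-RNA pair in the table. Per kilobase of gene locus, introns included, the contact total averaged over the 4 libraries was highest for Hnrnpa2b1 at 99.7 CPM (counts scaled by library size in edgeR), followed by Srsf5 at 50.4, Ddx5 at 46.7 and Srsf6 at 40.2 CPM per kb. It was lowest for Ptbp2 at 0.498 and Rbm25 at 0.786 CPM per kb. Since locus length counts introns that the mature mRNA lacks, this order is one per locus and not per transcript.

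The first comparison asked whether the contact total of a member, the sum of all its pairs, differed between the groups. Only Luc7l3 fell, and 0 members rose, among 37 tested. Luc7l3 encodes a LUC7-like protein of the kind that works with the U1 snRNP at 5′ splice sites (chromosome 11, 94291073 to 94322329). Its contact total was 19.6 and 24.8 CPM in the differentiation libraries and 41.1 and 47.9 CPM in the controls. The groups did not overlap, both differentiation libraries lying below both controls, and the log2 change was -0.99 (SE 0.28, adjusted p = 0.0422 by edgeR's quasi-likelihood test). With column totals in place of TMM scaling, 2 members were called higher (Srsf6 and Hnrnpm) and 0 lower. The share of members called, 1 of 37, compares with 12.2% of 10993 RNAs called in either direction and 6.75% called lower.

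Luc7l3 had no within-RNA pair, and 49.2% of its counts were with Gm42418 or Gm26917. Its pair with Gm26917 had 6 and 7 counts in differentiation and 22 and 33 in control, and its pair with Gm42418 had 2 and 9 counts in differentiation and 19 and 18 in control, and neither passed the test on its own (adjusted p = 0.116 and 0.278, edgeR). Without the pairs of those 2 hubs the log2 change was -0.51 and the call was lost (adjusted p = 0.44, edgeR). The call was also lost without control replicate 1, control replicate 2 or differentiation replicate 1, under RLE scaling, with column totals only, without pseudogene pairs and in DESeq2, with adjusted p between 0.0184 and 0.44 over all alternatives run. Summed contact totals of 3 marker lists were apart between groups beside it. Sertoli markers summed to 751 and 726 CPM in differentiation and 1246 and 1422 CPM in control, and meiotic markers to 834 and 1025 CPM in differentiation and 330 and 316 CPM in control. Undifferentiated spermatogonia markers summed to 448 and 426 CPM in differentiation and 1145 and 1314 CPM in control. Fibroblast markers overlapped, at 1822 and 1954 CPM in differentiation and 2147 and 1935 CPM in control. Their part in the result was not tested. The Sertoli markers Amh, Rhox5 and Trf had no pair analysed here.

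**Figure D2:**
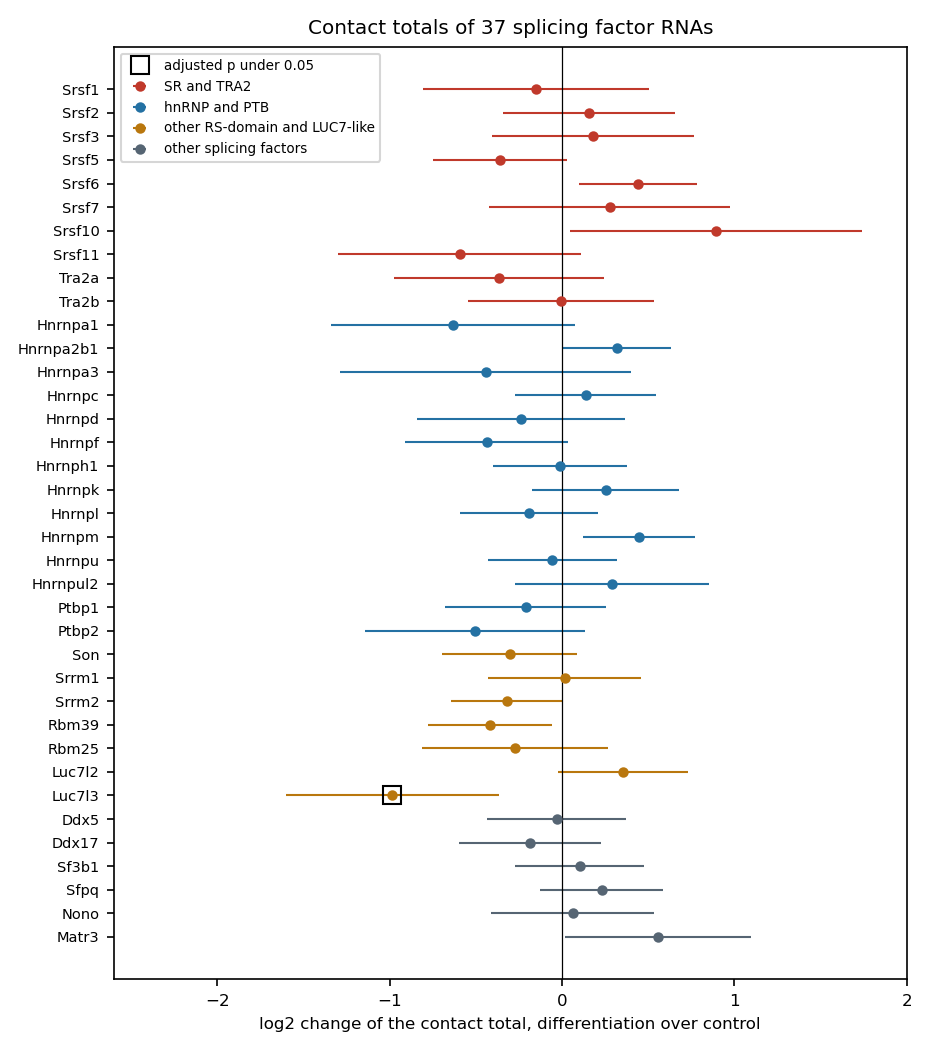
Log2 change of the contact total, differentiation over control (x axis), with 95% intervals of the edgeR fit for each of 37 members, coloured by class; the square marks an adjusted p under 0.05. Luc7l3 at -0.99 is the member marked, and the other intervals reach across or close to 0.

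For the other 36 members the intervals bound what the libraries could show. The half-width of the 95% interval of the log2 change was 0.315 to 0.847, with a median of 0.467, and for 30 of 37 members the whole interval lay between -1 and 1, that is within 2-fold either way. The median log2 change was -0.03 over members and -0.000707 over all RNAs, and 16 of 37 members lay above 0. Before adjustment 7 of the 37 members, Luc7l3 among them, and 2970 of the 10993 RNAs had p under 0.05 in edgeR. DESeq2 called 1 member higher (Hnrnpm, log2 change 0.48, adjusted p = 0.0375) and 0 lower. Without differentiation replicate 1 the log2 changes of Srsf6, Srsf10, Hnrnpk, Hnrnpm, Luc7l2 and Sfpq were 0.48, 1.37, 0.52, 0.52, 0.57 and 0.44. Without differentiation replicate 2 those of Srsf5 and Rbm39 were -0.56 and -0.62. Shares of all RNAs called by DESeq2 or with a library left out are not given here, so calls under those settings are not set against the table.

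The SR genes were on both sides of 0. Srsf10, which acts as a splicing repressor when dephosphorylated, had 20.4 and 47.0 CPM in differentiation and 17.9 and 19.1 CPM in control. The differentiation libraries were both above the controls but lay far apart from each other, and the log2 change of 0.89 (95% interval 0.05 to 1.74) did not pass the test (adjusted p = 0.162, edgeR). It was 1.37 and passed without differentiation replicate 1 (adjusted p = 0.00111). Srsf6 had 259 and 261 CPM in differentiation and 182 and 199.97 CPM in control, without overlap (0.44, 95% interval 0.10 to 0.79, adjusted p = 0.0912). Srsf5, one of the SR genes whose own mRNA carries a poison exon, had 193 and 248 CPM in differentiation and 259 and 310 CPM in control, with a log2 change of -0.36 (95% interval -0.75 to 0.03, adjusted p = 0.218). Srsf11 was at -0.59 and the TRA2 genes Tra2a and Tra2b, which bind purine-rich exonic enhancers, at -0.37 and -0.005. Srsf1, Srsf2, Srsf3 and Srsf7 lay between -0.15 and 0.28.

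Among the hnRNP genes, Hnrnpm, whose protein binds GU-rich sites, had 391 and 415 CPM in differentiation and 295 and 297 CPM in control. These groups did not overlap, and the log2 change was 0.45 (95% interval 0.12 to 0.77, adjusted p = 0.0755, edgeR). Hnrnpa2b1, a binder of UAG-containing sites, had 1085 and 1041 CPM in differentiation and 869 and 839 CPM in control, also without overlap (0.32, 95% interval 0.00124 to 0.63, adjusted p = 0.183). Hnrnpa1, its paralogue, was at -0.63 (95% interval -1.34 to 0.07, adjusted p = 0.235). Ptbp2, the PTB paralogue used in neurons and germ cells, had 24.5 and 29.7 CPM in differentiation and 32.4 and 44.8 CPM in control (-0.50, 95% interval -1.14 to 0.14, adjusted p = 0.299). Without the pairs of Gm42418 and Gm26917 the Ptbp2 total was at -1.48 and passed the test (adjusted p = 0.0294, edgeR). The pairs left out held 18 and 35 counts in differentiation and 13 and 30 in control. Those kept included the Malat1 pair of Ptbp2, described below, with 1 and 3 counts in differentiation and 17 and 23 in control. Ptbp1, which represses Ptbp2 splicing, had a log2 change of -0.21 (95% interval -0.68 to 0.26). The other 9 hnRNP genes lay between -0.44 for Hnrnpa3 and Hnrnpf and 0.29 for Hnrnpul2, with Hnrnph1, a binder of G-rich runs, at -0.0095 and Hnrnpu at -0.06.

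In the remaining classes, Rbm39, an RS-domain cofactor that resembles U2AF2, had 337 and 436 CPM in differentiation and 528 and 506 CPM in control (-0.42, 95% interval -0.78 to -0.06, adjusted p = 0.13), and over its between-RNA pairs only it was at -0.74 and passed (adjusted p = 0.0363, edgeR). The nuclear speckle scaffold genes Srrm2 and Son were at -0.32 and -0.30, without overlap between groups for either. Matr3, a nuclear matrix RNA-binding protein gene, had 48.9 and 46.4 CPM in differentiation and 33.0 and 31.7 CPM in control (0.56, adjusted p = 0.171). Its between-RNA pairs, scaled without the within-RNA pairs of the table, were at 0.72 and passed (adjusted p = 0.0417, edgeR). Sfpq and Nono, partners in paraspeckles, were at 0.23 and 0.06, and the helicase genes Ddx5 and Ddx17 at -0.03 and -0.19. Rbm25 was at -0.27, Srrm1 at 0.01 and Sf3b1 at 0.10. Column totals in place of TMM scaling raised the median of all RNAs by 0.16, and with them the signs of Srsf1, Tra2b, Hnrnph1, Hnrnpu and Ddx5 turned positive, those of Tra2b, Hnrnph1 and Ddx5 also with RLE scaling. Groups did not overlap in 9 members that were higher and 14 that were lower in differentiation, where 26.1% and 29.1% of all 10993 RNAs were apart in those directions.

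The second comparison was of contacts within the same RNA, which are joined fragments of one transcript or of 2 copies of it. Of 12 member pairs tested, those of Srsf6, Hnrnpm, Luc7l2 and Hnrnpa2b1 rose and 0 fell, and 12.3% of 4439 within-RNA pairs were called higher. The median log2 change was 0.49 for member pairs and 0.44 for all within-RNA pairs, so members lay near the level of the table as a whole. On these scales a within-RNA change is 0.28 above the change of the contact total of the same RNA (median over 748 RNAs with a within-RNA pair and no other), because pairs and totals were scaled apart.

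Hnrnpm within-RNA counts (chromosome 17, 33646233 to 33685458) were 627 and 676 CPM in differentiation and 346 and 350.1 CPM in control. Both differentiation libraries lay far above both controls, and the log2 change was 0.90 (SE 0.19, adjusted p = 0.0102, edgeR). For Luc7l2, a second LUC7-like gene (chromosome 6, 38551334 to 38609953), they were 226 and 333 CPM in differentiation and 142 and 131 CPM in control. The groups did not overlap and the log2 change was 1.04 (SE 0.24, adjusted p = 0.0176).

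Srsf6 within-RNA counts (chromosome 2, 162931508 to 162937121) were 350 and 393 CPM in differentiation and 219 and 217 CPM in control (0.77, SE 0.21, adjusted p = 0.0396). Those of Hnrnpa2b1 (chromosome 6, 51460434 to 51470048) were 1556 and 1519 CPM in differentiation and 1006 and 907 CPM in control (0.69, SE 0.17, adjusted p = 0.0254). Neither pair overlapped between groups. The call of each of the 4 pairs was lost when either control library was left out, with the log2 change then 0.62 to 1.09. Those of Srsf6 and Luc7l2 were also lost without differentiation replicate 2 (0.68 and 0.72), and those of Srsf6 and Hnrnpa2b1 with column totals only (0.63 and 0.55). With no filter the calls of Srsf6, Hnrnpm and Hnrnpa2b1 were lost (0.70, 0.84 and 0.61). Sfpq, with 1271 and 1678 CPM in differentiation and 968 and 996 CPM in control, was at 0.59 and did not pass (95% interval 0.20 to 0.97, adjusted p = 0.0711). It passed with RLE scaling (0.60, adjusted p = 0.0461), with the default filter (0.58, adjusted p = 0.04696) and without differentiation replicate 1 (0.77). Sf3b1 was at 0.43 (adjusted p = 0.237) and passed without differentiation replicate 1 (0.64). Rbm39 was at -0.07 and Hnrnpf at -0.23.

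A share of within-RNA counts in the member's own total does not depend on the scaling between libraries. It was 92.1% and 91.8% for Hnrnpm in differentiation and 80.7% and 82.7% in control, and 55.2% and 61.1% for Luc7l2 in differentiation and 47.2% and 42.2% in control. For Hnrnpa2b1 it was 82.3% and 82.2% in differentiation and 79.5% and 75.9% in control, while for Srsf6 it was 77.4% and 84.9% in differentiation and 82.5% and 76.3% in control, where the groups overlapped. Of 13 members with such a pair, the share was higher in both differentiation libraries than in both controls for 8 and lower for 1 (Nono). Among 3251 RNAs, 40.4% were apart and higher and 9.26% apart and lower. An exact permutation test of 2 against 2 libraries cannot go below p = 0.333, so no single share could pass.

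**Figure D3:**
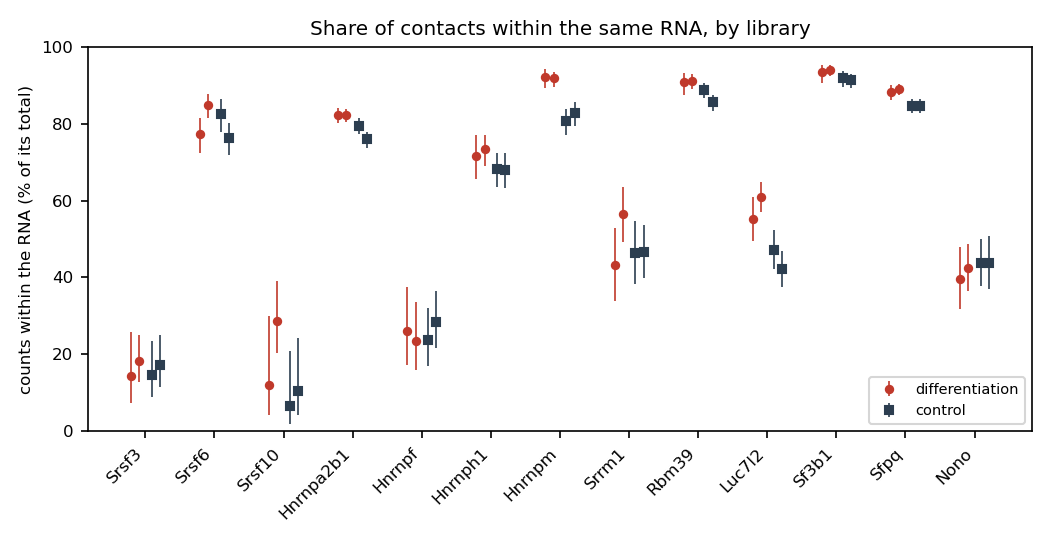
Share of a member's counts that lie within its own RNA (y axis, percent) in each library for the 13 members with such a pair, with Wilson 95% intervals that cover counting error only; red circles are differentiation and dark squares control. Hnrnpm and Luc7l2 show the widest gap between groups among members with narrow intervals, and Srsf6 and Hnrnpf overlap.

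The third comparison was of pairs with hub RNAs. Contacts with Malat1 and Neat1 were lower in differentiation across the table, where the contact total of Malat1 fell by 1.09 and that of Neat1 by 2.34 on the log2 scale (adjusted p = 0.00106 and 3.07e-05, edgeR). Of 17 member pairs with Malat1 that were tested, that of Ptbp2 fell and 0 rose, where 6.05% of 1487 Malat1 pairs were called lower. Of 4 with Neat1, that of Srrm2 fell and 0 rose, where 33.5% of 801 Neat1 pairs were called lower. Median log2 changes of member pairs were -0.81 with Malat1 and -1.76 with Neat1, against -0.87 and -1.99 over all pairs of those hubs.

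The Malat1 pair of Ptbp2 (chromosome 3, 119718741 to 119784647) had 1 and 3 counts in differentiation and 17 and 23 counts in control. It would not have passed the filter (minimum count 5) on its differentiation libraries alone and entered the test through the controls. The 2 groups were far apart, and the log2 change was -2.71 (SE 0.71, adjusted p = 0.0343, edgeR). The rate over library totals was 7.47 times higher in control, with an exact 95% counting interval of 2.70 to 28.7. That interval pools the 2 libraries of a group and covers counting error only, not the spread between libraries. It was computed only for pairs already called and adds no support to the call. Malat1 took 3.33% and 5.45% of the Ptbp2 counts in differentiation and 30.4% and 25.8% in control. Over the same libraries the Ptbp2 pairs with Gm42418 and Gm26917 were at 0.80 and 0.92 and did not pass the test (adjusted p = 0.438 and 0.44). DESeq2 gave no adjusted p for this pair and called 0 of the member pairs with Malat1, and in edgeR the call was lost without control replicate 2, differentiation replicate 1 or differentiation replicate 2 (-2.59, -2.39 and -3.34).

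The Neat1 pair of Srrm2 (chromosome 17, 23790527 to 23824741) had 4 and 4 counts in differentiation and 27 and 39 counts in control, with no overlap. Its log2 change was -2.43 (SE 0.56, adjusted p = 0.0171, edgeR), and DESeq2 called it too. The edgeR call was lost without control replicate 2 (-2.26) or differentiation replicate 2 (-2.14). The Neat1 pair of Hnrnpl, a binder of CA repeats, had 2 and 3 counts in differentiation and 15 and 23 in control and did not pass (-2.31, adjusted p = 0.0603, edgeR). It passed with column totals only (-2.44, adjusted p = 0.0453), the default filter (-2.32, adjusted p = 0.0327) and the replicate block (-2.32, adjusted p = 0.0385). The Neat1 pairs of Srrm2 and Hnrnpl would not have passed the filter (minimum count 5) on their differentiation libraries alone. Both entered the test through the controls. The Neat1 pair of Luc7l2 had 9 and 5 counts in differentiation and 9 and 8 in control, which overlap (0.33, 95% interval -1.09 to 1.74).

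Other Malat1 pairs with many counts were those of Ddx17, with 16 and 13 counts in differentiation and 38 and 39 in control (-0.81, adjusted p = 0.326), and Hnrnpu, a nuclear scaffold protein gene, with 9 and 12 in differentiation and 42 and 39 in control (-1.38, adjusted p = 0.0864). The groups did not overlap in counts for either. The Malat1 pair of Hnrnpl stood apart within its own group, with 5 and 31 counts in differentiation and 25 and 21 in control, and its sign was not settled (0.11, 95% interval -1.03 to 1.25). As a share of the member's counts, contacts with Malat1 or Neat1 were lower in both differentiation libraries than in both controls for 14 of 20 members and higher for 0, where 60.5% and 2.3% of 2349 RNAs were apart in those directions. The share of Luc7l3 was among the exceptions, at 20.8% and 17.4% in differentiation and 19.7% and 14.7% in control.

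No member pair with Gm42418, Gm26917 or Slc9a9 passed the edgeR test, nor the DESeq2 test. For Gm42418 it was 0 of 36 (2 at an unadjusted p under 0.05), where 2.01% of 6261 pairs were called, for Gm26917 0 of 33 (2 unadjusted), where 2.24% of 5587 were called, and for Slc9a9 0 of 35 (1 unadjusted), where 1.14% of 4756 were called. The largest of them was Srrm2 with Gm42418, at 101 and 164 counts in differentiation and 165 and 244 in control, with a log2 change of -0.06 (95% interval -0.57 to 0.44). The Gm42418 pair of Ddx5 had 20 and 21 counts in differentiation and 55 and 79 in control (-1.11, 95% interval -1.90 to -0.32, adjusted p = 0.0963), the groups being apart. As a share of counts, contacts with Gm42418 or Gm26917 were apart and lower for 17 of 36 members and apart and higher for 6, where 33.6% and 7.87% of 5401 RNAs were.

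**Figure D4:**
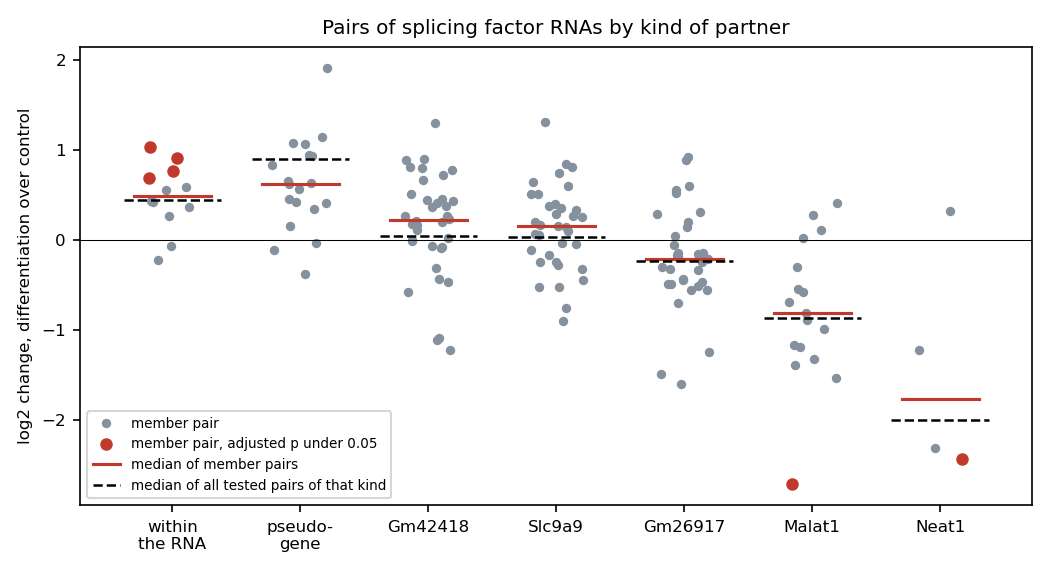
Log2 change, differentiation over control (y axis), of each tested member pair by kind of partner (x axis); red points passed an adjusted p under 0.05, red lines are medians of member pairs and dashed black lines are medians of all tested pairs of that kind. The member medians lie near the dashed lines, at -0.81 and -0.87 for Malat1 and at -1.76 and -1.99 for Neat1.

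The fourth comparison was of pairs with all other RNAs. None of 91 tested member pairs without a listed hub passed (11 at an unadjusted p under 0.05 in edgeR, 0 by DESeq2), where 3.84% of 7635 such pairs were called. Their median log2 change was 0.35, against 0.19 over all such pairs. Many of the largest were with annotated pseudogenes: 18 of 37 members had at least 1 such pair, 24 pairs in all, of which 22 lay on another chromosome than the member. Among these pairs 19 were tested and 0 passed (7 unadjusted), where 12.1% of 876 pseudogene pairs were called, and the medians were 0.62 for member pairs and 0.90 for all.

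The pair of Ddx5 with Gm12183 was the largest, with 315 and 764 counts in differentiation and 535 and 603 in control. The raw control counts lay between those of the differentiation libraries. Scaled, the pair was at 448 and 732 CPM in differentiation and 451 and 433 CPM in control, where the groups overlapped. The log2 change was 0.42 (95% interval -0.05 to 0.89, adjusted p = 0.306, edgeR). The pair of Srsf5 with Gm12966 had 203 and 382 counts in differentiation and 368 and 502 in control (-0.03, 95% interval -0.48 to 0.41). Hnrnpk, whose protein binds C-rich sites, had 172 and 387 counts with Gm7964 in differentiation and 227 and 292 in control (0.62, 95% interval 0.13 to 1.12, adjusted p = 0.137). Without differentiation replicate 1 the pairs of Ddx5 and Hnrnpk passed (0.73 and 0.89). Pairs with named copies were among them: Srsf3 with Srsf3-ps (listed as Gm12355) had 4 and 15 counts in differentiation and 10 and 8 in control, and Matr3 with Matr3-ps2 had 7 and 14 in differentiation and 2 and 6 in control (1.91, adjusted p = 0.119). The Matr3-ps2 pair would not have passed the count filter on its control libraries alone and entered the test through the differentiation libraries.

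Pseudogene partners were more frequent for members than for other protein-coding RNAs with at least 100 between-RNA counts, as a description. They were present for 48.6% of members and 14.8% of the 3912 others, led the between-RNA pairs of 10 members (27.0%) and 6.95% of the others, and took 31.5% of the members' between-RNA counts and 5.07% of those of all other protein-coding RNAs. The share of counts rested largely on a few genes. Of the 7167 pseudogene counts of members, 2217 were of Ddx5 with Gm12183, 1455 of Srsf5 and 1078 of Hnrnpk. Members had a median of 317 between-RNA counts and the others 219. Conversely, a within-RNA pair was listed for 35.1% of members and 48.2% of the others. Of the 24 members without one, 12 had a pseudogene pair and 12 had neither.

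A chimeric fragment between an mRNA and its processed copy reads the same as one within the mRNA where the letters are the same, so contacts between the 2 loci and contacts within 1 RNA cannot be told apart in these counts. The values of pseudogene pairs and of the within-RNA shares of these members are uncertain for that reason. Partners that overlap each other had near-equal counts in some cases, of which the largest by counts follows. Both pairs of such a case enter the member's contact total. The Hnrnpa2b1 pair with Pcdh15 had 71 and 103 counts in differentiation and 96 and 106 in control, and the pair with Gm5778, a pseudogene that lies inside Pcdh15 (chromosome 10, 73201528 to 73202692), had 67 and 102 in differentiation and 92 and 104 in control. The partner Gm12940 of Sfpq is a RefSeq synonym of Sfpq itself, so this pair of 108 counts in all is of 1 locus.

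The fifth comparison set the SR genes against the hnRNP genes. Summed SR counts were 879 and 1539 in differentiation and 1216 and 1613 in control, and summed hnRNP counts were 3004 and 4794 in differentiation and 3863 and 4450 in control. The log2 ratio of SR over hnRNP counts was -1.77 and -1.64 in differentiation and -1.67 and -1.46 in control. The groups overlapped, and the difference of -0.14 gave an exact two-sided permutation p of 0.667. It was 0.16 without Srsf5 and Hnrnpa2b1, the members of the largest count in each class, so its sign rested on those genes. Without them the ratio was higher in both differentiation libraries than in both controls, so the groups no longer overlapped.

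Shares by kind of partner were apart between groups in both classes for within-RNA contacts. These held 29.2% and 30.0% of SR counts in differentiation and 22.6% and 20.3% in control, and 57.4% and 55.1% of hnRNP counts in differentiation and 49.6% and 46.3% in control. The SR value rested mostly on Srsf6, which held 1219 of the 1322 within-RNA counts of the class and whose own share overlapped between groups. Without Srsf6 the SR shares were 1.96% and 4.92% in differentiation and 1.66% and 2.06% in control, which overlap, and the difference was 1.58 percentage points, against 8.15 with it. For hnRNP genes it was 8.28 points, and 7.60 without Hnrnpa2b1, which held 5139 of 8342 such counts, with the groups still apart. Summed over the whole table, within-RNA pairs held 47.7% and 52.9% of counts in differentiation and 48.9% and 49.4% in control, where the groups overlapped. Taken RNA by RNA, 40.4% of 3251 RNAs were apart and higher in this share and 9.26% apart and lower. The class of further splicing factors was also apart and higher, and that of other RS-domain or LUC7-like genes overlapped. A higher within-RNA share was thus not particular to SR and hnRNP genes. Whether these classes differ from the table was not tested. The exact permutation p was 0.333 for SR genes and for hnRNP genes, the smallest that 2 against 2 libraries allow.

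Contacts with Malat1 or Neat1 held 3.86% and 3.16% of the between-RNA counts of SR genes in differentiation and 6.59% and 6.85% in control, and 2.73% and 3.86% of those of hnRNP genes in differentiation and 7.24% and 7.54% in control. Both classes were apart and lower in differentiation, as were both remaining classes of members. Over the table, 60.5% of 2349 RNAs were apart and lower in the share of all their counts with these hubs. Contacts with the 11 listed noncoding hubs together overlapped between groups for SR genes, with 24.9% and 21.0% of all counts in differentiation and 24.5% and 30.5% in control (exact permutation p = 0.667), and were apart for hnRNP genes, with 15.3% and 16.8% in differentiation and 21.4% and 23.9% in control (exact permutation p = 0.333). Both remaining classes of members were also apart and lower in this share. The difference was -5.49 percentage points for other RS-domain or LUC7-like genes and -4.31 for further splicing factors. A lower share with these hubs was thus not particular to hnRNP genes, and its value over the table is not given here. Whether the classes differ in that change was not tested. Pseudogene pairs held more of the SR counts, 32.2% and 37.5% in differentiation and 37.99% and 37.88% in control, than of the hnRNP counts, 11.02% and 13.48% in differentiation and 11.4% and 11.8% in control. Srsf5 held 1455 of the 1933 SR pseudogene counts and Hnrnpk 1078 of the 1943 of hnRNP genes. Summed over the 4 libraries the share was 36.8% for SR genes and 13.7% without Srsf5, and 12.1% for hnRNP genes and 5.85% without Hnrnpk.

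**Figure D5:**
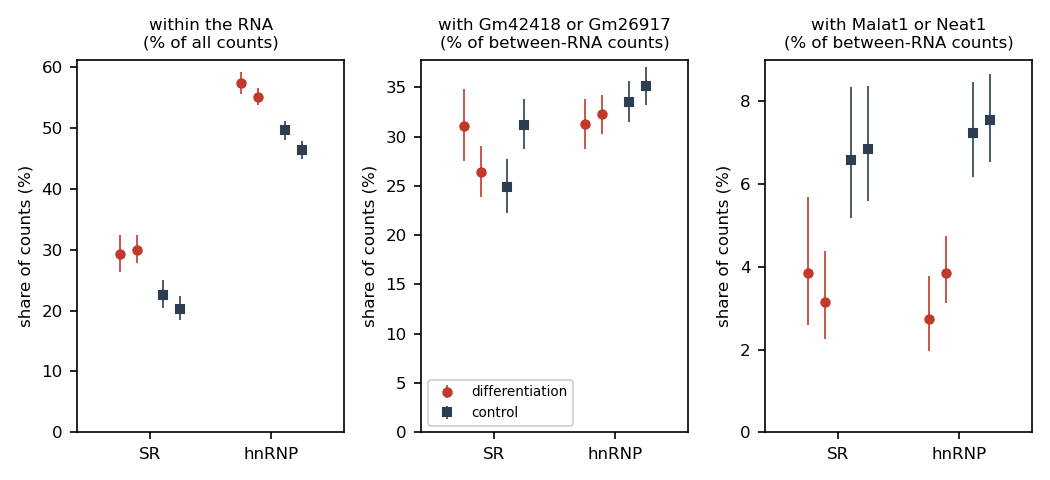
Shares of counts (y axes, percent) of SR and hnRNP genes in each library, with Wilson 95% intervals that cover counting error only; red circles are differentiation and dark squares control. Within-RNA shares are higher and Malat1 or Neat1 shares lower in both differentiation libraries in both classes (the SR within-RNA shares are mostly Srsf6 and overlap without it), and shares with Gm42418 or Gm26917 overlap in SR genes.

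Other genes of the splicing machinery were read beside the members from a list of 76, of which 71 were tested and 5 rose and 4 fell, with a median log2 change of 0.05 (8 higher and 2 lower with column totals only). Calls among them, 9 of 71, were near the 12.2% of all RNAs called. Hnrnpll, a paralogue of Hnrnpl, had a contact total of 468 and 440.0 CPM in differentiation and 247 and 266 CPM in control (0.82, adjusted p = 0.00474, edgeR). The core Sm protein genes Snrpd3 (0.73) and Snrpd1 (0.92), the LUC7-like gene Luc7l (0.67) and the STAR-family gene Khdrbs3 (0.86) also rose. Within the LUC7-like family Luc7l rose, Luc7l3 fell and Luc7l2, at 0.35 (95% interval -0.03 to 0.73), did not pass.

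The genes that fell were the SR protein kinase gene Clk1, with 7.34 and 9.18 CPM in differentiation and 21.99 and 33.75 CPM in control (-1.73, adjusted p = 0.0145, edgeR), the muscleblind gene Mbnl2 (-1.19), Celf2 (-0.67) and Rbfox2 (-0.61). All 9 changes were without overlap between groups, as genes picked for a low adjusted p mostly would be. Of all 10993 RNAs, 26.1% were apart and higher and 29.1% apart and lower. The calls of these genes were lost when either control library was left out. Of the genes that were not called, Sf1, which binds the branch point, had 952 and 1063 CPM in differentiation and 776 and 837 CPM in control (0.32, adjusted p = 0.19).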

How the data were processed

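The deposited values are raw counts, 1 whole number of chimeric reads for each RNA pair in each library, and no other column held values of samples. The submitters' processing notes name STAR and GRCm38 and give neither role nor version. How chimeric reads, duplicates, strand and overlapping or near-identical genes were handled is not given in the sources used here, so such genes are uncertain. Pair names were split into their 2 RNA names. A RefSeq gene table of GRCm38.p6 held 12030 of the 13318 names as symbols and 516 as synonyms (772 were unmatched), and gave coordinates, classes and locus lengths. All 37 members matched by symbol.

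Counts were tested by quasi-likelihood in edgeR 4.0.16 under R 4.3.3 (TMM scaling, filterByExpr with a minimum count of 5 and a minimum total of 10, two-sided), with Benjamini-Hochberg adjustment over all pairs or all RNAs tested, at an adjusted p under 0.05. Contact totals sum every pair of an RNA, a within-RNA pair once, so a between-RNA pair enters 2 totals and totals are not independent of each other. CPM are as given by edgeR. Scripts were tested on simulated data. Of 200 features changed by 2 on the log2 scale, 36.5% were recovered in pairs and 81.5% in contact totals. A pair that was not called is thus not shown to be unchanged. Summed classes and shares were compared by exact permutation, two-sided. Alternatives were a replicate block, DESeq2 1.42.0, RLE or column total scaling, the default filter (minimum count 10, total 15) or none, other sets of pairs, and each library left out in turn, which assumes that the lone library varies as the other group does. Leaving out pairs with an annotated pseudogene, or the member of largest count from a class share, was chosen after seeing the data.

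The members and lists were chosen with earlier results of these data known. Named were all members, called pairs with Gm42418, Gm26917, Malat1, Neat1 or Slc9a9 and up to 4 others per hub by summed count, called within-RNA pairs and up to 6 others, up to 8 of the largest other pairs, and up to 8 called and 4 of the largest other splicing genes. Pairs of Luc7l3, the Gm42418 pair of Ddx5, the other pairs of Ptbp2, the smaller pseudogene pairs, Snrpd1 and the partners under other observations were chosen after their values were seen. One of the other splicing genes that this rule names is not reported here. Sequences were not used here.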

Additional observations from a re-analysis of the deposited data

How the results depend on the processing

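The fall of the Luc7l3 contact total kept its sign in all alternatives run and its call in 6 of 14. No member was called lower under RLE scaling, column totals only, DESeq2 or without pairs with an annotated pseudogene (chosen after seeing the data). Called higher were 2 members with column totals only, 1 with the default filter, 1 with DESeq2, and 1 without pseudogene pairs, and with between-RNA pairs only 1 was called higher and 2 lower. Leaving out 1 library gave 0 to 6 members higher (6 without differentiation replicate 1) and 0 to 3 lower (3 without differentiation replicate 2). Column totals only moved the median of all contact totals by 0.16 and of all pairs by -0.14 on the log2 scale. Shares of all RNAs or pairs called are given here for the main fit only. Counts called under the alternatives, here and above, are thus not results about the members.

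Within-RNA pairs called higher were 5 with RLE scaling, 5 with the default filter, 2 with column totals only, 2 with no filter, and 0 to 6 with 1 library left out (0 without either control, 2 without differentiation replicate 2). Hub pairs called lower were 1 with DESeq2 and 0 to 3 with 1 library left out (0 without control replicate 2, 1 without differentiation replicate 2). Pairs with other RNAs called higher were 0 to 5 with 1 library left out (5 without differentiation replicate 1). Other splicing genes called were 8 higher and 2 lower with column totals only, and 0 to 14 higher and 0 to 5 lower with 1 library left out (0 without either control, 14 higher without differentiation replicate 1). The SR over hnRNP difference was 0.155 without the largest member of each class and -0.242 to -0.0385 with 1 library left out. The hnRNP hub share difference was -3.97 percentage points with only Gm42418 and Gm26917, -2.40 with only Malat1 and Neat1, and -7.84 to -5.31 with 1 library left out, and the SR one was -7.55 to -1.56. Without the member of the largest count of that kind (chosen after seeing the data), the difference was 1.58 points for the within-RNA share of SR genes and 3.69 for their pseudogene share, which was -3.09 with all SR genes.

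Replicate numbers were shared between groups, but the labels did not say that they pair the libraries. Deviations of replicates correlated at 0.133 over 6086 RNAs. With the replicate block 8 other splicing genes were called higher, the Neat1 pair of Hnrnpl passed (-2.32, adjusted p = 0.0385, edgeR), and the Malat1 pair of Hnrnpl changed sign (-0.022).

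Signs changed only in results that were not called, under the settings named here. With column totals only these were Srsf1 (0.014), Tra2b (0.16), Hnrnph1 (0.15), Hnrnpu (0.11), Ddx5 (0.14), Gm42418-Sfpq (-0.026) and Malat1-Hnrnpl (-0.026). With RLE scaling they were Tra2b (0.027), Hnrnph1 (0.024) and Ddx5 (0.0016). With DESeq2 they were Tra2b (0.026), Hnrnph1 (0.024) and Ddx5 (0.00204). Under the default filter they were Tra2b (0.019) and Hnrnph1 (0.014). With no filter it was Srrm1 (-0.021). Counting between-RNA pairs only, they were Srsf1 (0.023), Tra2b (0.17), Hnrnpm (-0.55), Hnrnpu (0.11), Ddx5 (0.14), Sf3b1 (-0.14) and Sfpq (-0.025). Without Gm42418 and Gm26917 they were Srsf2 (-0.038), Srsf7 (-0.14), Tra2b (0.28), Hnrnpd (0.12), Hnrnpul2 (-0.039) and Nono (-0.011). Without Neat1 it was Tra2b (0.092). Without pseudogene pairs they were Srsf3 (-0.22), Hnrnpc (-0.17), Hnrnph1 (0.051) and Hnrnpk (-0.028). With 1 library left out, contact totals that took both signs were Srsf1 (-0.39 to 0.15), Srsf3 (-0.31 to 0.54), Tra2b (-0.15 to 0.16), Hnrnph1 (-0.19 to 0.18), Hnrnpk (-0.044 to 0.52), Hnrnpu (-0.18 to 0.085), Srrm1 (-0.14 to 0.19), Ddx5 (-0.34 to 0.25), Sf3b1 (-0.14 to 0.33), Nono (-0.19 to 0.35), Qk (-0.024 to 0.23) and Ewsr1 (-0.048 to 0.21). Pairs that did were Srrm2-Gm42418 (-0.22 to 0.12), Hnrnpu-Gm42418 (-0.29 to 0.78), Gm26917-Sfpq (-0.32 to 0.025), Malat1-Hnrnpl (-1.32 to 0.72), Neat1-Luc7l2 (-0.46 to 0.94), Srrm2-Slc9a9 (-0.51 to 0.085), Son-Slc9a9 (-0.40 to 0.10), Hnrnpu-Slc9a9 (-0.18 to 0.40), Rbm39-Rbm39 (-0.29 to 0.12), Srsf5-Gm12966 (-0.22 to 0.13) and Gm16581-Srrm2 (-0.053 to 0.32). The cause was not tested.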

Other observations

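Apart from the 5 main hubs, the partners listed by most members were Shroom3, with 24 of 37 members (64.9%, against 59.8% of the 3912 other protein-coding RNAs with at least 100 between-RNA counts), Gm12153 with 22 members (59.5%, against 36.9%), Gm23935 with 20 members (54.1%, against 44.6%) and Cdk8 with 14 members (37.8%, against 28.3%). Rmrp, the RNA of the RNase MRP enzyme and one of the listed noncoding hubs, met 10 members (27.0%, against 16.6%). Members had the larger between-RNA counts, with a median of 317 against 219, and the part of that in these shares was not tested.

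Of 243 member pairs with neither a hub nor a pseudogene, 195 had a partner with a position in RefSeq, 30 of these partners lay on the chromosome of the member and 10 lay within 1000 kb, Gm12940 of Sfpq at the member's own locus among them. Hnrnpc met the chromatin remodeller gene Chd8, 94.1 kb away, in 6 and 4 counts in differentiation and 4 and 12 in control, and the RNA methyltransferase gene Mettl3, 191 kb away, in 4 and 3 in differentiation and 2 and 7 in control. Luc7l3 met Spag9, 165 kb away, in 1 and 8 counts in differentiation and 1 and 10 in control, where the replicates of each group differed more than the groups did.

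Of 6 pairs of overlapping partners of 1 member, 2 had the same counts and 4 differed. Hnrnph1 had the same 3 and 2 counts in differentiation and 3 and 2 in control with Akap2 and with Pakap, which share 1 locus, and Hnrnpc the same 3 and 9 in differentiation and 7 and 4 in control with Gm18889 and with Rgs22, which overlap on chromosome 15. Hnrnpu had 6 and 2 counts in differentiation and 6 and 10 in control with Rnu3b4, and 5 and 1 in differentiation and 3 and 11 in control with Tex14.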
